A study of Mus musculus with 12 samples.

Results

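The genes that set the switch between rest and division were followed in alveolar macrophages, the phagocytes that live on the air side of the lung. They are the D-type cyclins Ccnd1, Ccnd2 and Ccnd3, their kinases Cdk4 and Cdk6, the inhibitors Cdkn1a, Cdkn1b, Cdkn2c and Cdkn2d, and the pocket protein gene Rb1. The genes were taken by symbol, 10 of the 55291 symbols in the deposited table, and all 10 were found. RNA had been sequenced from the sorted macrophages of 12 female C57BL/6NJ mice aged 8 to 11 weeks, all of 1 strain and with no transgene. The ozone group held 6 mice that breathed 0.8 ppm ozone for 4 h on each of 4 days, and the filtered-air group held 6 mice kept on the same schedule without ozone. Lungs were taken 3 days after the last exposure. The cells were sorted in 2 batches with 3 mice of each group in each batch.

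D-type cyclins are made in response to growth factors and bind CDK4 or CDK6. The active kinases phosphorylate the retinoblastoma protein and its relatives, which releases E2F transcription factors and opens the way into S phase. INK4 proteins, among them p18 (Cdkn2c) and p19 (Cdkn2d), bind CDK4 and CDK6 and keep them from the cyclin, while the CIP/KIP proteins p21 (Cdkn1a) and p27 (Cdkn1b) act mainly on CDK2 complexes and also help cyclin D and its kinase to assemble. Alveolar macrophages can renew themselves in the lung by dividing at a low rate.

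Each value is expression after variance stabilization, in log2 units, counted from the filtered-air mean of its gene, so that mean is 0 for every gene and abundance cannot be read from the table. Levels are therefore not compared between genes, and a difference is compressed where a gene had few reads. All 10 genes had reads in all 12 mice. The smallest step above the value shared by mice without reads, the worth of 1 read, was 0.097 to 0.115 across the ozone libraries and 0.099 to 0.113 across the others; total read numbers are unknown. Of 14 markers listed for resident alveolar macrophages 13 were in the table, and all 13 had reads in all 12 mice. Of these 9 were lower and 4 higher in the ozone mean, and 3 were called, Krt79 at -0.35, Ear1 at -0.28 and Car4 at 0.32 (limma's adjusted p = 0.0177, 0.0358 and 0.046). Of 81 markers of other cells in 13 lists, 69 passed the filter on reads, and 1 of them had an adjusted p under 0.05 (Epcam, lower after ozone). Camp and Elane of neutrophils, Epx of eosinophils and Mcpt4 of mast cells were without reads in every mouse. Filtered-air mouse 4 had the highest mean of its group in 9 of these lists and an RNA integrity number of 8.9, the lowest of all 12. In such bulk samples fewer cells of a type and less RNA per cell cannot be told apart.

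Cdk4, which encodes a partner of the D-type cyclins, rose after ozone, and it was the only member of the 10 with an adjusted p under 0.05 in limma (Benjamini-Hochberg over the 19633 genes kept). That is 10% of the members, against 4.25% of all genes kept. By direction 1 member was called higher, against 2.41% of all genes kept, and 0 were called lower, against 1.84%. Its values were 0.16 at the lowest, 0.21 at the median and 0.28 at the highest in ozone mice, and -0.086, -0.0035 and 0.10 in filtered-air mice. All 6 ozone mice lay above every filtered-air mouse, a separation that 3.53% of all genes kept showed in either direction. The difference was 0.22 (SE 0.0418, 95% interval 0.13 to 0.30, limma's adjusted p = 0.00984). It was 0.25 in batch 1 and 0.18 in batch 2. With any 1 mouse left out it lay between 0.20 and 0.24 and kept its call, with an adjusted p from 0.00832 to 0.0291. After quantile normalization, which gives all mice the same distribution of values, it was 0.19 with an adjusted p of 0.0883 in limma.

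The Cdk4 gene lies at chr10:127063534-127067920 on the plus strand (GRCm38, GENCODE M21). It overlaps Tspan31 on the opposite strand, and whether the counting used strand is not given in the sources used here. Tspan31 had a difference of 0.037 (SE 0.0344, limma's adjusted p = 0.675). Since Cdk4 was the member that rose, the 250 bases before its RefSeq start site are shown (GRCm38.p6, chr10:127063285-127063534, plus strand, 5′ to 3′), with every CACGTG in capitals.
Cdk4 promoter: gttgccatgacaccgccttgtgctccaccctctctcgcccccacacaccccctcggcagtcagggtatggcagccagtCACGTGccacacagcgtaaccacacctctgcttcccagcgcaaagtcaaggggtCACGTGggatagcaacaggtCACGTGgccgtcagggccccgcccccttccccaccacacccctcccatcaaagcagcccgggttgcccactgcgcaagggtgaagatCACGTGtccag
CACGTG is the E-box core that MYC and related factors can bind; it is its own reverse complement, so both strands give the same matches. The 4 matches began 172, 118, 98 and 11 bases before the start site. Of the 32851 promoter windows in the RefSeq table, each 300 bases long, 7.15% held at least 1 such match and 8 windows, or 0.0244%, held 4 or more. This search was added after the result for Cdk4 was known. Windows were found for 7 of the 10 members, and those of Cdk6 and Cdkn2c held CACGTG as well.

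The E2F letters TTTGGCGC and TTTCGCGC were searched on both strands. They occurred in the windows of 0 of these 7 members, against 0.929% of all genes with a window, so 0 of 7 does not set the members apart. Of the 17 listed S phase genes with a window, 7 held one or the other. To show what the search looks for, 40 bases are given from each of 2 S phase genes that rose, with the match in capitals. They are Mcm6, a helicase subunit, which rose by 0.40 (limma's adjusted p = 0.00516), and Pola1, the catalytic subunit of polymerase alpha, which rose by 0.28 (limma's adjusted p = 0.0468). The windows lie on the minus strand at chr1:128359729-128359768 and chrX:93632270-93632309 (GRCm38.p6) and are written 5′ to 3′ along each gene.
Mcm6: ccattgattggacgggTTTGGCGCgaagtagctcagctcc
Pola1: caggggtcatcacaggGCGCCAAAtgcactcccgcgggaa
The letters TTTGAA of the cell cycle homology region were in the windows of 0 of the 7 members. They were found for 20.2% of all genes with a window and for 2 of the 17 S phase genes. Such matches describe letters in a window, and no binding was measured.

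**Figure D1:**
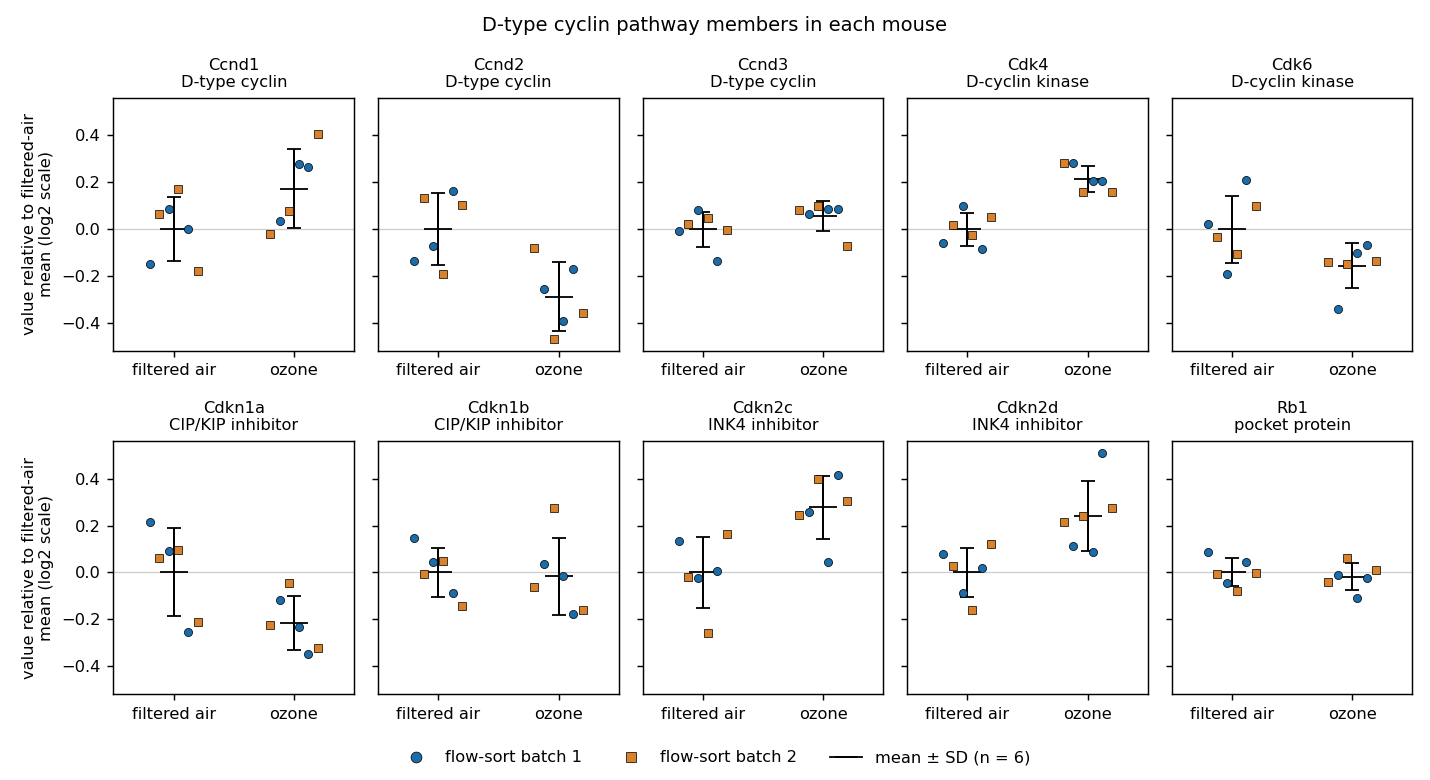
Values of the 10 genes in each mouse on the log2 scale, relative to the filtered-air mean, with flow-sort batch by symbol and mean ± SD (n = 6) per group. Cdk4 is the gene whose 6 ozone values, 0.16 to 0.28, lie above all filtered-air values.

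Of the D-type cyclins Ccnd2 had an ozone mean 0.29 lower and Ccnd1 one 0.17 higher, while Ccnd3 differed by 0.057, and none of the 3 passed the test over all genes. Ccnd2 (chr6:127125162-127152193, minus strand) had ozone values of -0.47, -0.31 and -0.080 at the lowest, the median and the highest, against -0.19, 0.017 and 0.16 in filtered air. In 4 of 6 ozone mice it lay below every filtered-air mouse, and ozone mouse 1, at -0.080, and ozone mouse 5, at -0.17, lay within the filtered-air range. The difference was -0.29 (SE 0.0775, 95% interval -0.45 to -0.12, limma's adjusted p = 0.0518). It was -0.26 in batch 1 and -0.32 in batch 2. Ccnd2 overlaps Gm43126 and 9330179D12Rik on the opposite strand, with differences of -0.016 and -0.045 that did not pass.

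Ccnd2 passed in 5 of its 23 alternatives. With replicate number as a block, a pairing that the design does not give, limma's adjusted p was 0.0335. With RNA integrity as a covariate the difference was -0.32 with limma's adjusted p = 0.00961. Without the batch term the adjusted p in limma was 0.0341. That term accounts for a degree of freedom used by the batch correction, so p-values without it come out too small. Without filtered-air mouse 4 the difference was -0.33 with limma's adjusted p = 0.0266, and without ozone mouse 1 it was -0.33 with 0.0251. Over all alternatives the adjusted p ranged from 0.00961 to 0.461. Ccnd2 is also used by lymphocytes, and the 6 listed B cell markers were all lower after ozone, with 0 of them called. Their mean lay between -0.43 and -0.069 after ozone, against -0.25 to 0.38 in filtered air. Filtered-air mouse 4 had the highest B cell marker mean, 0.38, and the lowest Ccnd2 of its group. Filtered-air mouse 5 had the highest Ccnd2 of its group, 0.16, with B cell markers from -0.089 (Cd79b) to 1.12 (Ighm). The 5 listed NK cell markers were all lower too, with 0 called and a median difference of -0.086, and filtered-air mouse 4 had their highest mean, 0.34. The 8 listed T cell markers had a median difference of -0.00060, with 0 called. The part of other cells in the Ccnd2 difference was not tested.

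Ccnd1 (chr7:144929931-144939925, minus strand), a cyclin that growth factor signals induce, ranged from -0.022 to 0.41 after ozone with a median of 0.17, and from -0.18 to 0.17 in filtered air with a median of 0.033. Ozone mice 4, 5 and 6 lay above every filtered-air mouse, at 0.28, 0.26 and 0.41, and the other 3 lay among them. The difference was 0.17 (SE 0.0795, 95% interval 0.0031 to 0.34, limma's adjusted p = 0.288). Ccnd3 (chr17:47505051-47599691, plus strand) ranged from -0.073 to 0.098 after ozone, median 0.082, and from -0.14 to 0.081 in filtered air, median 0.0092. Its groups overlapped, and the difference of 0.057 had a 95% interval from -0.038 to 0.15 (limma's adjusted p = 0.598). Ccnd3 has an annotated pseudogene, Ccnd3-ps, which did not pass the filter on reads. Ccnd1 overlaps LTO1 and Ccnd3 overlaps Bysl on the opposite strand, with differences of -0.085 and 0.012 that did not pass.

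Cdk6, the kinase that shares the D-type cyclins with CDK4, had a lower ozone mean and did not pass. Its gene spans chr5:3341485-3531008 on the plus strand. Ozone values were -0.34, -0.14 and -0.066 at the lowest, the median and the highest, and filtered-air values -0.19, -0.0059 and 0.21. Only ozone mouse 2, at -0.34, lay below every filtered-air mouse. The difference was -0.16 (SE 0.0655, 95% interval -0.30 to -0.015, limma's adjusted p = 0.240). In batch 1 it was -0.18 and in batch 2 -0.13. Cdk6 overlaps Gm42435 on the opposite strand, with a difference of -0.0071 that did not pass.

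Both INK4 inhibitors were higher in the ozone mean, by 0.28 and 0.24, and neither passed. Cdkn2c (chr4:109660876-109667189, minus strand), which encodes p18, had ozone values of 0.046, 0.28 and 0.41 at the lowest, the median and the highest, and filtered-air values of -0.26, -0.0089 and 0.17. It lay above every filtered-air mouse in 5 of 6 ozone mice, with ozone mouse 4, at 0.046, as the exception. The difference was 0.28 (SE 0.0744, 95% interval 0.12 to 0.44, limma's adjusted p = 0.0511). It was 0.20 in batch 1 and 0.35 in batch 2.

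Cdkn2d (chr9:21288410-21291407, minus strand), which encodes p19 of the INK4 family, had ozone values of 0.087, 0.23 and 0.51 and filtered-air values of -0.16, 0.023 and 0.12. In 4 of 6 ozone mice it lay above every filtered-air mouse, and ozone mice 2 and 4, at 0.11 and 0.087, lay within the filtered-air range. The difference was 0.24 (SE 0.0691, 95% interval 0.093 to 0.39, limma's adjusted p = 0.0687), close to equal in the batches at 0.23 and 0.25. Of 23 alternatives Cdkn2c passed in 6 and Cdkn2d in 3. With replicate number as a block, a pairing that the design does not give, limma's adjusted p was 0.0157 for Cdkn2c and 0.0398 for Cdkn2d. Without the batch term, where p-values come out too small, limma's adjusted p was 0.0334 for Cdkn2c and 0.0456 for Cdkn2d. Cdkn2c also passed among genes with reads in all 12 mice and after centring each mouse on its median, with an adjusted p of 0.0495 and 0.0484 in limma. Without ozone mouse 4 both INK4 genes passed, Cdkn2c at 0.33 with limma's adjusted p = 0.0196 and Cdkn2d at 0.27 with 0.0497. Without filtered-air mouse 6 Cdkn2c passed, at 0.31 with 0.0321. Over all alternatives the adjusted p ranged from 0.0157 to 0.473 for Cdkn2c and from 0.0398 to 0.479 for Cdkn2d.

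The CIP/KIP inhibitors gave no call. Cdkn1a (chr17:29090976-29100727, plus strand), a target of p53 that halts the cycle after DNA damage, had ozone values of -0.35, -0.23 and -0.045 and filtered-air values of -0.25, 0.076 and 0.22. The filtered-air mice were split, with mice 1 to 4 between 0.063 and 0.22 and mice 5 and 6 at -0.25 and -0.21, and the groups overlapped. The difference was -0.22 (SE 0.0807, 95% interval -0.39 to -0.043, limma's adjusted p = 0.173). Cdkn1b (chr6:134920401-134925513, plus strand), which encodes p27, ranged from -0.18 to 0.27 after ozone with a median of -0.038, and from -0.14 to 0.15 in filtered air with a median of 0.018. Its difference was -0.017, with a 95% interval from -0.17 to 0.14 (limma's adjusted p = 0.945), and it turned positive in batch 2, at 0.052 against -0.087 in batch 1.

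Rb1 (chr14:73183673-73325822, minus strand), whose protein is the main substrate of these kinases, gave a narrow interval around 0. Values ranged from -0.11 to 0.063 after ozone, median -0.017, and from -0.078 to 0.086 in filtered air, median -0.0045. The groups overlapped, with a difference of -0.019 (SE 0.0400, 95% interval -0.11 to 0.066, limma's adjusted p = 0.875). In batch 1 it was -0.077 and in batch 2 0.039. Rb1 overlaps Lpar6 and Rcbtb2 on the opposite strand, with differences of -0.042 and -0.13 that did not pass.

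Over the 10 genes the median difference was 0.020, against -0.0033 over all genes kept, and 5 were higher and 5 lower in the mean. The median absolute difference was 0.19, against 0.046 over all genes kept. Only 17168 of the 19633 kept genes had reads in all 12 mice, as the 10 members did, and few reads compress a difference. An unadjusted p under 0.05 was found for 7 of the 10 members and for 16.7% of all genes kept. The sign was the same in both batches for 8 of the 10. The term for a difference of the ozone effect between batches had an adjusted p of 1.00 in all 10, and 0 of them had an unadjusted p under 0.05 in limma, against 2.60% of all genes kept.

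**Figure D2:**
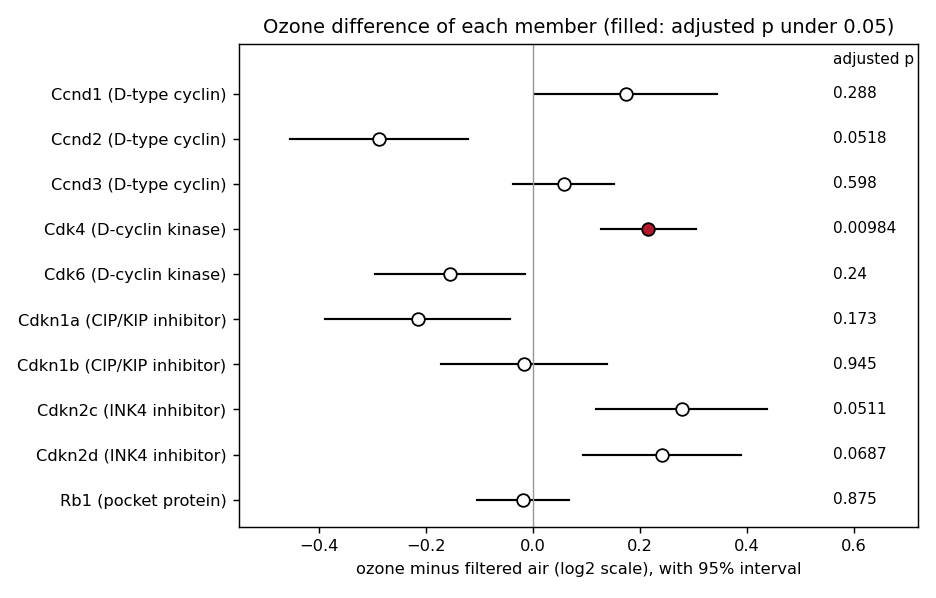
Ozone minus filtered air for each member on the log2 scale with its 95% interval from limma and the adjusted p over all genes kept; filled points have an adjusted p under 0.05. Cdk4, at 0.22, is filled, and Cdkn2c and Ccnd2 have adjusted p-values of 0.0511 and 0.0518.

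Members of a family were then compared within each mouse, to ask whether they differed in their response to ozone. The value of 1 member minus that of the other was taken in 6 pairs, and the test of the group means was an exact permutation test, two-sided, over the 924 assignments of 6 mice against 6, adjusted over the 6 pairs. The assignments took no account of flow-sort batch, and the smallest p this test allows is 0.00216. In 4 of the 6 pairs the members differed in their response. Some pairs share a gene, and the pairs were chosen with earlier results known. The share among other gene pairs was not computed.

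Cdk4 and Cdk6 differed in their response. Their difference was 0.37 ± 0.134 (SD, n = 6) in ozone mice and 0 ± 0.196 (SD, n = 6) in filtered-air mice (exact permutation test, p = 0.00433, adjusted p = 0.0130), and 5 of 6 ozone mice lay above every filtered-air mouse. Ccnd2 differed from both other cyclins. Ccnd2 minus Ccnd3 was -0.34 ± 0.150 (SD, n = 6) after ozone (exact permutation test, p = 0.00433, adjusted p = 0.0130), below every filtered-air mouse in 5 of 6. Ccnd1 minus Ccnd2 was 0.46 ± 0.259 (SD, n = 6) after ozone (exact permutation test, p = 0.0152, adjusted p = 0.0227), above every filtered-air mouse in 4 of 6. Cdkn1a minus Cdkn1b was -0.20 ± 0.0630 (SD, n = 6) in ozone mice, with an SD of 0.0962 in the 6 filtered-air mice (exact permutation test, p = 0.00866, adjusted p = 0.0173), below every filtered-air mouse in 3 of 6.

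The sign of each of these 4 differences was the same in both batches. Cdk4 minus Cdk6 was 0.43 and 0.31 in batches 1 and 2, Ccnd2 minus Ccnd3 was -0.36 and -0.33, Ccnd1 minus Ccnd2 was 0.47 and 0.45, and Cdkn1a minus Cdkn1b was -0.16 and -0.23. Any 1 mouse could be left out with all 4 kept. After quantile normalization 0 pairs passed, and the 4 had an adjusted p of 0.0552 each in the exact permutation test. Their values were then 0.31 for Cdk4 minus Cdk6, -0.30 for Ccnd2 minus Ccnd3, 0.40 for Ccnd1 minus Ccnd2 and -0.16 for Cdkn1a minus Cdkn1b. Cdkn2c and Cdkn2d were not shown to differ, at 0.037 (exact permutation test, adjusted p = 0.470), with ozone mice between -0.096 and 0.16 and filtered-air mice between -0.099 and 0.065. Ccnd1 minus Ccnd3 was 0.12 (exact permutation test, adjusted p = 0.343), with ozone mice between -0.10 and 0.48. Leaving out 1 mouse moved it between 0.044 (without ozone mouse 6) and 0.16, and moved Cdkn2c minus Cdkn2d between 0.012 (without ozone mouse 3) and 0.063 (without ozone mouse 5). A pair difference on this scale also depends on how many reads each gene had.

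**Figure D3:**
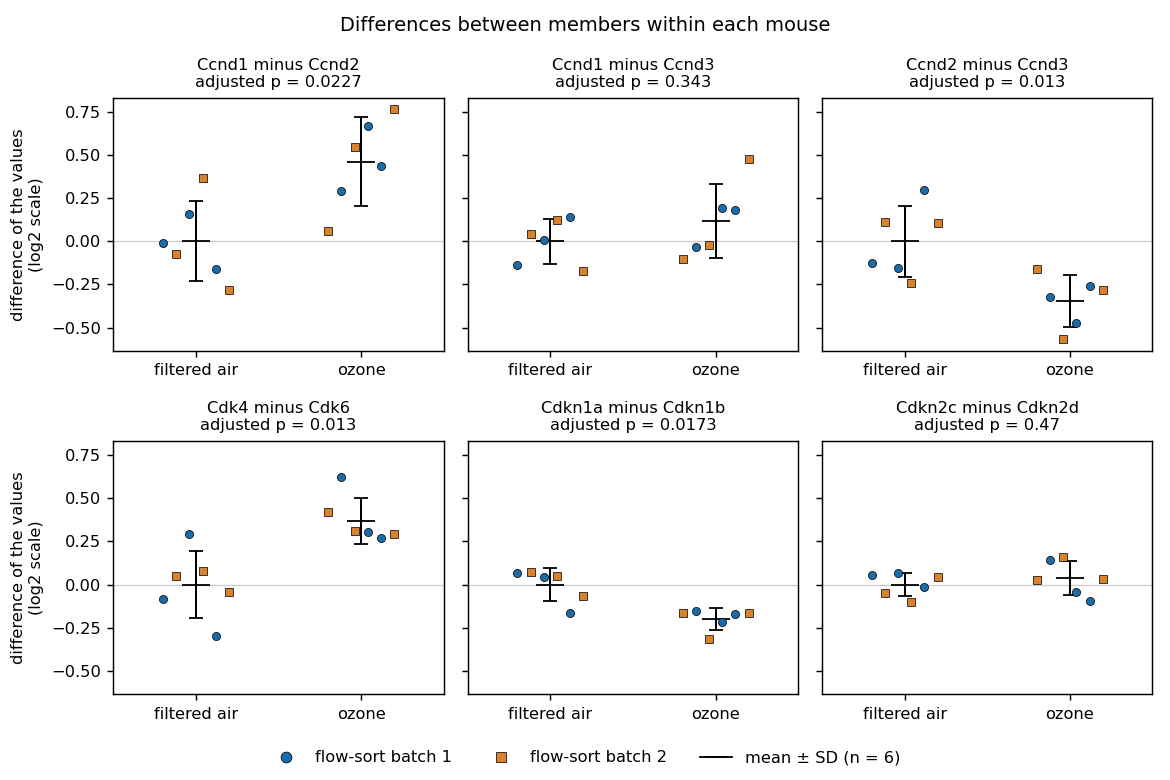
The value of 1 member minus that of another in each mouse on the log2 scale, for 6 pairs, with mean ± SD (n = 6) and the adjusted p of the exact permutation test. The ozone values of Cdk4 minus Cdk6 lie between 0.27 and 0.62, and those of Cdkn2c minus Cdkn2d overlap with filtered air.

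**Figure D4:**
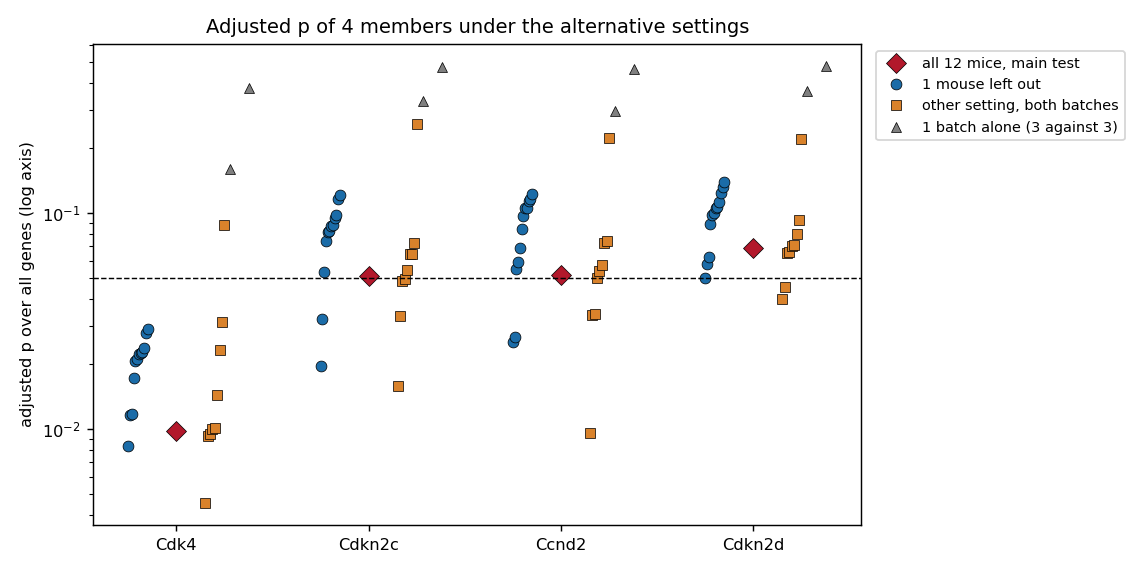
Adjusted p over all genes (log axis) of Cdk4, Cdkn2c, Ccnd2 and Cdkn2d with all 12 mice, with 1 mouse left out, under other settings and in 1 batch alone; the dashed line is at 0.05. Cdk4 lies below the line with any 1 mouse left out, while the other 3 genes lie on both sides of it.

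Downstream of the members, E2F target genes of S phase and later cyclins rose. Of 20 listed S phase genes 17 rose and 0 fell, with a median difference of 0.35 against -0.0033 over all genes kept. Rrm1, a subunit of ribonucleotide reductase, rose by 0.46 (SE 0.0515, limma's adjusted p = 0.000402). Tyms, which makes thymidylate, rose by 0.42 (SE 0.0516, limma's adjusted p = 0.00071), and Mcm2, part of the replicative helicase, rose by 0.43 (SE 0.0539, limma's adjusted p = 0.000737). The mean of the 20 lay between 0.25 and 0.42 after ozone, above the filtered-air range of -0.14 to 0.13. Of 12 kept cyclins E, A and B and their kinases and phosphatases 7 rose and 0 fell, with a median of 0.27; Cdk1 rose by 0.48, Ccnb2 by 0.51 and Ccna2 by 0.53 (limma's adjusted p = 0.00173, 0.00193 and 0.00291). After quantile normalization 8 of the 20 and 3 of the 12 were called, with medians of 0.28 and 0.23. This rise of dividing-cell genes was known before the lists were written, and the lists are not independent evidence of it.

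Among mice of 1 group, the members were compared with that S phase mean. Pearson's r over 6 mice lay between -0.62 (Ccnd1, ozone) and 0.71 (Cdkn2c, filtered air) in the 20 relations of 10 genes and 2 groups. With exact permutation of the pairings 0 of 20 had an unadjusted p under 0.05, by Pearson's r or by Spearman's rho, and the lowest adjusted p was 0.713 for r and 0.940 for rho. For Cdkn2c in filtered air r was 0.71 (rho 0.54, exact permutation p = 0.10 and 0.297), and it was -0.26 without the 2 mice farthest from the median S phase mean. For Ccnd1 in ozone mice r was -0.62 (rho -0.60, exact permutation p = 0.212 and 0.242) and 0.63 without the 2 farthest mice. Both values rest on those mice. With 3 mice per group and batch, no value within a batch was computed.

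Of the 10 listed E2F and DP transcription factors, some of which pocket proteins hold back, 3 rose and 0 fell, with a median of 0.068. They were E2f8, at 0.43, E2f2, at 0.32, and Tfdp1, at 0.18, with adjusted p-values in limma of 0.00866, 0.0144 and 0.0415. E2f8 encodes a repressor that does not bind pocket proteins, E2f2 an activator, and Tfdp1 a dimer partner. Tfdp1 no longer passed in 10 of 12 leave-one-out fits, nor with RNA integrity as a covariate or a variance trend (limma's adjusted p = 0.0571 and 0.0526). After quantile normalization 0 of the 10 were called, with E2f8 at 0.35 (limma's adjusted p = 0.0883). E2f1 had a difference of 0.062 (limma's adjusted p = 0.605). Of 7 parts of the DREAM and MuvB complex, which pairs with pocket proteins in resting cells and with MYBL2 and FOXM1 in dividing cells, 2 rose and 0 fell, with a median of 0.038. They were Mybl2, at 0.38, and Foxm1, at 0.48 (limma's adjusted p = 0.00936 and 0.0306). Foxm1 no longer passed in 7 of 12 leave-one-out fits, nor without the filter on reads (limma's adjusted p = 0.0515). It did not pass with a variance trend or with a robust prior variance either (limma's adjusted p = 0.0594 and 0.0502). After quantile normalization 0 of the 7 were called, with Mybl2 at 0.30 (limma's adjusted p = 0.106).

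Among 6 further CDK inhibitors and pocket proteins 2 rose and 0 fell, with a median of 0.13. Cdkn2a, which encodes the INK4 inhibitor p16 and the unrelated ARF protein from 1 gene, rose by 0.21 (SE 0.0376, limma's adjusted p = 0.0062), with all 6 ozone mice above every filtered-air mouse. After quantile normalization it was 0.18 (limma's adjusted p = 0.0516), and 0 of the 6 genes were called. The table does not separate its 2 transcripts. Cdkn3, a phosphatase of CDK1 and CDK2 that is made in dividing cells, rose by 0.27 (SE 0.0665, limma's adjusted p = 0.0319) but no longer passed in 8 of 12 leave-one-out fits. Cdkn2b, the INK4 gene beside Cdkn2a, had a difference of 0.036, and Rbl1, a pocket protein gene, had one of 0.16 (limma's adjusted p = 0.775 and 0.138).

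Of 20 p53 target genes and regulators 0 were called, with a median of 0.063 and the smallest p-value in Ccng1, at 0.16 (limma's adjusted p = 0.0643). Mdm2 had a difference of -0.019. Of the 20 genes 13 had a difference above 0, and 7 had one below 0, as Cdkn1a did. Of 13 ubiquitin ligase parts that act on G1 regulators 2 rose and 0 fell, with a median of -0.022. Dtl, the substrate receptor through which CUL4 marks p21 for destruction during S phase, rose by 0.38 (SE 0.0737, limma's adjusted p = 0.00929), and Cks1b, the cofactor with which SKP2 recognises p27, rose by 0.21 (SE 0.0408, limma's adjusted p = 0.0108). After quantile normalization 0 of the 13 were called, with Dtl at 0.31 and Cks1b at 0.18 (limma's adjusted p = 0.0892 and 0.0739). Skp2 itself had a difference of 0.15 (limma's adjusted p = 0.212).

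Upstream of the cyclins, 1 of 13 growth factor, receptor and self-renewal genes rose and 0 fell, with a median of -0.015. Csf1r, the receptor for macrophage colony-stimulating factor, was higher by 0.39 (SE 0.0846, limma's adjusted p = 0.0181). After quantile normalization it was 0.33 (limma's adjusted p = 0.0826), and 0 of the 13 were called. Myc, which can bind E-boxes, had a difference of -0.21 (limma's adjusted p = 0.241), and Csf2rb, a chain of the GM-CSF receptor, had one of -0.015 (limma's adjusted p = 0.939). A further list of regulators around D-type cyclins, CDK4 and CDK6 also held partners of the retinoblastoma protein and of cyclin Y. Of its 11 genes 1 rose and 2 fell, with a median of 0.0024. Tob1, an antiproliferative protein of the BTG family, fell by 0.32 (SE 0.0518, limma's adjusted p = 0.00357), and all 6 ozone mice lay below every filtered-air mouse. Cdk14, a kinase that works with cyclin Y, fell by 0.20 (limma's adjusted p = 0.0311). Suv39h1, a histone methyltransferase that works with the retinoblastoma protein, rose by 0.22 (limma's adjusted p = 0.0422). Cdk14 and Suv39h1 no longer passed in 8 and 10 of 12 leave-one-out fits, nor with a variance trend (limma's adjusted p = 0.0524 and 0.0540). Suv39h1 did not pass without the filter on reads or with RNA integrity as a covariate either (limma's adjusted p = 0.0538 and 0.0526). After quantile normalization 1 of the 11 was called, Tob1, at -0.26 (limma's adjusted p = 0.0447).

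Of 9 FOXO factors and targets 0 were called, with a median of 0.055 and the smallest p-value in Ccng2, at 0.25 (limma's adjusted p = 0.063). Of the 5 genes of the kinase that activates CDK4 and its chaperones 0 were called either, with a median of 0.012 and the smallest p-value in Ccnh, at -0.095 (limma's adjusted p = 0.213).

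**Figure D5:**
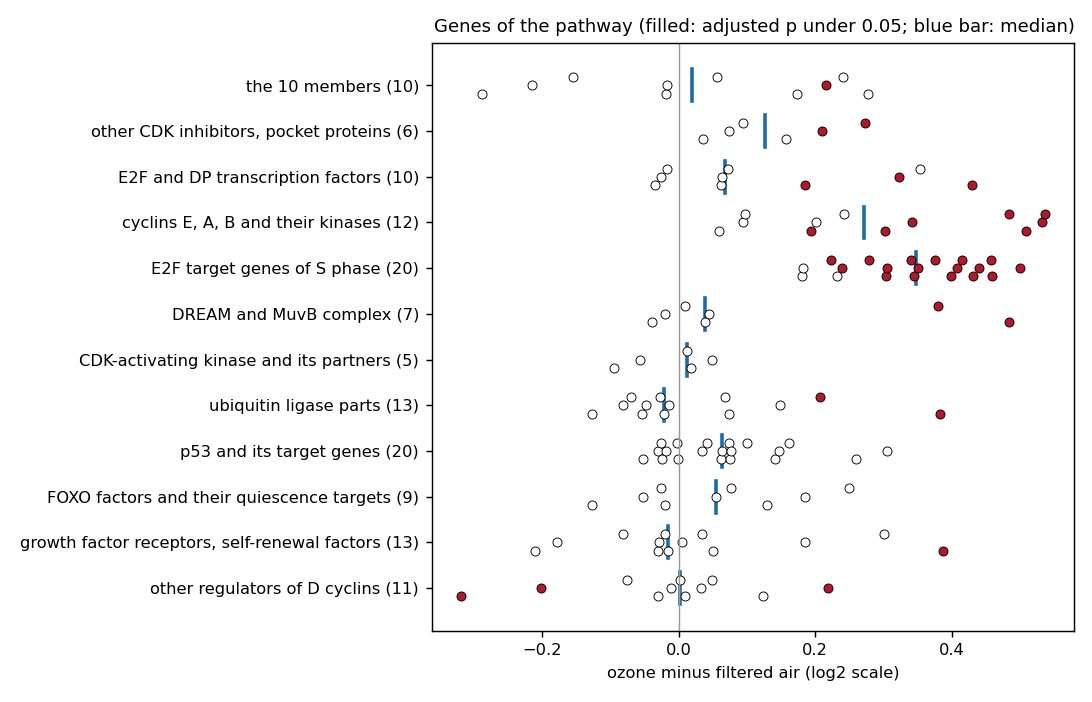
Ozone minus filtered air on the log2 scale for the members and for every kept gene of the 11 pathway lists, with the number of genes in brackets; filled points have an adjusted p under 0.05 and the blue bar is the median. The members lie on both sides of 0 between -0.29 and 0.28, while all 20 S phase genes lie at 0.18 or above.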

How the data were processed

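The deposited table holds log2-scale values, variance-stabilized and batch-corrected by the authors per the file name. The submitters' processing notes list STAR 2.7.7a, Salmon 1.5.2, DESeq2 1.26.0 and limma 3.42.2 with build mm10, without their roles. The filtered-air mean and the difference between batch means were 0 in every gene. Genes were kept where at least 6 of 12 mice lay above the lowest value shared within their batch, with a tolerance of 1e-06 (19633 of 25444 that varied). Ozone was compared with filtered air in limma 3.58.1 (R 4.3.3) with batch as a covariate and no variance trend, with Benjamini-Hochberg adjustment over all genes kept and a threshold of 0.05, after a check on simulated data. Promoters came from RefSeq, positions from GENCODE M21. The members, pairs and lists were chosen with earlier results of these data known. Named are all members and, per pathway list, the 3 called genes with the smallest p-values or, with 0 called, the 1 gene with the smallest; Mcm6, Pola1, E2f1, Mdm2, Skp2, Cdkn2b, Rbl1, Myc, Csf2rb, Epcam and the overlapping neighbours were added after their values were seen. All 12 columns matched 1 sample each.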

Additional observations from a re-analysis of the deposited data

Results flagged for a closer look

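In 20 combinations of a member and a group, 2 mice lay far from the other 5 of their group by Dixon's criterion, and about 1 in 20 is expected by chance. Ccnd3 in ozone mouse 6 was -0.073, with a ratio of 0.816, while the other 5 ozone mice lay between 0.066 and 0.098. Without this mouse the Ccnd3 difference was 0.086 with an adjusted p of 0.304 in limma, and without filtered-air mouse 5 it was 0.026 with 0.824. Cdk6 in ozone mouse 2 was -0.34, with a ratio of 0.701, and without it the Cdk6 difference was -0.11 with an adjusted p of 0.420 in limma; leaving out any 1 mouse gave -0.20 to -0.11.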

How the results depend on the processing

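The 1 member called became 4 without the batch term, 2 with only genes with reads in all 12 mice, 2 after centring each mouse on its median, 2 with RNA integrity as a covariate, 0 after quantile normalization, and 0 in batch 1 or batch 2 alone (3 mice against 3). With 1 mouse left out it ranged from 1 to 3. Without the batch term p-values come out too small, since the values were already batch-corrected. The total of 834 genes was 1152, 870, 844 and 803 under the first 4 of these settings, 171 after quantile normalization, 90 with batch 1 alone and 0 with batch 2 alone; leaving out 1 mouse gave 538 to 751. The 4 pairs became 0 after quantile normalization and stayed 4 without any 1 mouse. Of 230 values for members under alternatives, 206 kept direction and side of the threshold, 14 passed newly, 3 lost the Cdk4 call (quantile normalization and each batch alone) and 7 turned sign. Those were Cdkn1b with RNA integrity (0.0069) and in batch 2 (0.052), Rb1 in batch 2 (0.039), and fits without 1 mouse, where Cdkn1b ranged from -0.082 to 0.018 and Rb1 from -0.038 to 0.00092. For the 19 named pathway genes that were called, 98 of 437 values lost the call, and quantile normalization ended 12 of the 19 calls, batch 1 alone 14 and batch 2 alone all 19. For the 3 that were not called, 4 of 69 values passed newly. None of the 22 turned sign. The cause was not tested. The number of reads behind a member is unknown.

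Both groups carry the replicate numbers 1 to 6, which mark different animals, and only 2 of 6 same-numbered pairs share a flow-sort batch. The correlation of their deviations ranged from -0.0026 to 0.28, with 4 of 6 over 0.1, and 6 of 12 mice correlated best with their own number. Since not every pair was over 0.1, the samples were not treated as paired, and the best matches are a hint from the data, not from the design. With the replicate block 4 members were called, Cdk4, Cdkn2c (adjusted p = 0.0157), Ccnd2 (0.0335) and Cdkn2d (0.0398) in limma, and 853 genes in all, 686 of them among the 834. Of the named pathway genes Tfdp1 lost its call with the block (limma's adjusted p = 0.0913) and Ccng1 passed (0.0403). The 4 pairs passed with the block too, but narrowly, with a lowest adjusted p of 0.0469 in the exact permutation test with the block.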
